A study of Caenorhabditis elegans with 2 samples.

Results

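The genes of the proteasome are described here as they appear in a chromatin immunoprecipitation experiment on the transcription factor CHE-1 in Caenorhabditis elegans. The set holds every nuclear protein-coding gene whose symbol starts with pas-, pbs-, rpt- or rpn- in the Ensembl release 115 annotation of assembly WBcel235. That rule gave 33 of 19973 nuclear protein-coding genes, and no measured value entered it. A region was assigned to a gene when its summit, the position the authors' caller gave within it, lay between 2 kb upstream of the gene start and the gene end.

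Chromatin was recovered with an anti-GFP antibody from whole mixed-sex late embryos, 6 hours after synchronization by egg bleaching. There was 1 group of 2 biological replicates and no second condition. All animals were of strain OP677, unc-119(tm4063) III; wgIs677, and carried CHE-1 with a C-terminal GFP-FLAG tag as a stable transgene. CHE-1, a zinc finger protein, is known for fixing the identity of the ASE taste neurons, which are a small part of the cells of a whole embryo. Without an untagged strain or a control library to set beside them, recovery that depends on CHE-1 cannot be told apart from recovery that does not. The lists hold no measure of expression, so the labelled stage could not be checked against marker genes.

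The authors deposited 4 lists of build ce11. The list of both replicates together, the list of replicate 1 and the list of replicate 2 held 30000 regions each and include background. The irreproducible discovery rate (IDR) method compares how regions rank in replicates. The IDR set held 791 peaks, which are the 791 with the best ranks in the joint list. A single peak of it need not rank alike in the replicates. At the gene ufd-3, which has an IDR peak, the best region ranked 557 in replicate 1 and 2572 in replicate 2. Each region carries the authors' score on a scale that is not stated. It is used here to rank regions within a list, rank 1 being the highest, and scores of different lists are not compared. No read numbers came with the regions and sequencing depth is thus unknown. A summit at a gene is a position, not evidence of regulation.

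The proteasome is the large protease that degrades proteins marked with ubiquitin. Its barrel-shaped core is built of rings of alpha subunits (pas genes), which gate the entrance, and of beta subunits (pbs genes), which hold the cutting sites. The cap that docks on the barrel has a ring of ATPases (rpt genes), which unfold the substrate, and other subunits (rpn genes), which bind and remove ubiquitin or hold the cap together. In worms the factor SKN-1 is known to raise transcription of these genes when the proteasome is impaired. There were 7 pas, 7 pbs, 6 rpt and 13 rpn genes in the set.

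The stretches below are the 6 best-ranked of the subunit genes' best regions on chromosomes II to V with a summit outside annotated UTRs. They are not the 6 highest regions of the set. Best regions at ranks 99, 1261, 1461, 2774 and 2989 of the list of both replicates did not meet these conditions. Each of those ranked above the regions of rpn-13 and rpt-2, which are printed. Counts over the 6 stretches therefore do not describe the highest regions. The 6 stretches differ in setting. Those of rpn-7, rpn-3 and rpt-2 lie between divergent genes. That of rpt-6 lies inside a neighbour, that of rpn-11 in a repeat and that of rpn-13 where its own start is the nearest. Each runs 5′ to 3′ on the strand of the named gene, up to 100 bases either side of the summit, and stops where an annotated UTR begins. They were read from the RefSeq sequence of WBcel235, which is the assembly of ce11. Capitals mark ATCAT or GTCAT (the core described for SKN-1) and GAAACC or GAAGCC (the core described for CHE-1), on either strand. E-box CACGTG and CGCACA were also sought, and neither was found in these 6 stretches. The stretches of rpt-6, rpn-11 and rpn-13 hold none of the motifs.
rpn-7 (chrIV:9316216-9316324, plus strand, summit at base 9): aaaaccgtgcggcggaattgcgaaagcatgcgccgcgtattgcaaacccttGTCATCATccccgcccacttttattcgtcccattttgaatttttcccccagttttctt
rpn-3 (chrIII:8447038-8447238, plus strand, summit at the middle base): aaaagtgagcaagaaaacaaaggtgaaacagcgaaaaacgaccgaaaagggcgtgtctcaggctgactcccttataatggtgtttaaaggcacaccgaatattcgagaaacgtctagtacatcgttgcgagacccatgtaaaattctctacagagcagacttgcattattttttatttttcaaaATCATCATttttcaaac
rpt-6 (chrIII:12368767-12368967, plus strand, summit at the middle base): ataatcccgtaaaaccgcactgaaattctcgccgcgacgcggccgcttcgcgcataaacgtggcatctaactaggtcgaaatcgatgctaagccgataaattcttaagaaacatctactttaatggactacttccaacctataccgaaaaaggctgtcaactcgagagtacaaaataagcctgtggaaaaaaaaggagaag
rpn-11 (chrII:4045919-4046119, minus strand, summit at the middle base): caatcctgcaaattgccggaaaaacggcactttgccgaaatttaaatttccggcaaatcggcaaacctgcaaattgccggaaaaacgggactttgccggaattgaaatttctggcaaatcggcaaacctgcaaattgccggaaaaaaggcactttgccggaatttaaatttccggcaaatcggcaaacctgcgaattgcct
rpn-13 (chrIII:6342213-6342390, minus strand, summit at base 78): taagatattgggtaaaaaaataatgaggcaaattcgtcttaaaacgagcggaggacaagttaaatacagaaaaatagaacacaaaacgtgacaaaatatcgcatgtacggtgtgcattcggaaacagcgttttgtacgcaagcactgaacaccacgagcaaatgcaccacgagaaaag
rpt-2 (chrV:6017743-6017943, minus strand, summit at the middle base): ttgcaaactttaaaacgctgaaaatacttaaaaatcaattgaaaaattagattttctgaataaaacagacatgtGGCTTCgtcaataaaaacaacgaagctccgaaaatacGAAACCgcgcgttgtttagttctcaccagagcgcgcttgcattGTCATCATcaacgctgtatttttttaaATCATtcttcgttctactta

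As among all genes, few proteasome genes carried an IDR peak. A summit of the IDR set lay in the window of 2 of 33 genes, pbs-5 and rpn-7 (6.06%, exact binomial 95% interval 0.743 to 20.2%). Of all nuclear protein-coding genes, 4.24% did so, and the interval covers that share. No pas gene and no rpt gene had one. Among the highest 791 regions of the replicate lists, replicate 1 had 3 of the 33 genes, pbs-5, rpn-7 and rpn-3 (all genes 4.21%), and replicate 2 had 2, pbs-5 and rpn-11 (all genes 4.1%). Intervals here cover counting error over genes only, and genes that share a promoter are not independent.

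pbs-5 (WBGene00003951, chromosome I) codes for the beta subunit whose counterpart in yeast has the chymotrypsin-like cutting site, and it had the highest region of the set. Its peak spans 14721486 to 14721750 and ranked 99 with a score of 443. It ranked 102 in replicate 1 (score 247, at -1153 bp) and 103 in replicate 2 (score 194, at -1146 bp), so the replicates placed it almost alike. The summit lay at -1146 bp from the start of pbs-5, and at 356 bp inside K05C4.2. That gene is transcribed in the same direction and ends 110 bp before pbs-5 begins. The nearest start to the summit was that of K05C4.2 in both replicates too.

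rpn-7 (WBGene00004463, chromosome IV), a subunit of the lid of the cap, had the other IDR peak, at 9315982 to 9316465. It ranked 449 with a score of 168 in the list of both replicates, 386 in replicate 1 (score 106, at -401 bp) and 822 in replicate 2 (score 61.3, at -417 bp). It was thus just outside the highest 791 in replicate 2. Its summit was at -407 bp from the start of rpn-7 and at -9 bp from the start of F49C12.9, the divergent neighbour 415 bp away. A weaker region of rank 4639 lay at -207 bp. In the printed stretch both forms of the SKN-1 core overlap once, in GTCATCAT, and the CHE-1 core is not in it.

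At the wider limit of the highest 5000 regions, a larger share of proteasome genes than of all genes had a region. A region among the highest 5000 of the list of both replicates lay at 14 of 33 genes (42.4%, exact binomial 95% interval 25.5 to 60.8%), against 20% of all nuclear protein-coding genes. Replicate 1 gave 13 (all genes 20.4%) and replicate 2 gave 15 (all genes 20%). The difference between the gene set and all genes was not tested. Windows of proteasome genes were shorter, with a median of 3490 bp against 4027 bp for all genes. In windows of equal length around the start (1 kb upstream to 200 bp downstream) it was 9 genes (27.3%), against 9.73% of all genes. When a region went only to the gene with the nearest start, it was 7 genes (21.2%), against 14.2% of all genes.

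The median best rank of the 33 genes was 8057 in the list of both replicates, 7174 in replicate 1 and 6001 in replicate 2, with genes without a region counted as below all ranks. Over all genes it was 20577, 19439 and 19002 in the same lists. All 3 lists therefore placed the median of the proteasome genes higher than that of all genes. A region of any rank was found at 28 of 33 genes in the list of both replicates, against 60.1% of all genes. Each replicate list had one at 29 genes (all genes 62.6% in replicate 1 and 63.6% in replicate 2). Windows of proteasome genes held 64 regions, none in more than 1 such window, or 0.529 per kb against 0.308 per kb for all genes.

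**Figure D1:**
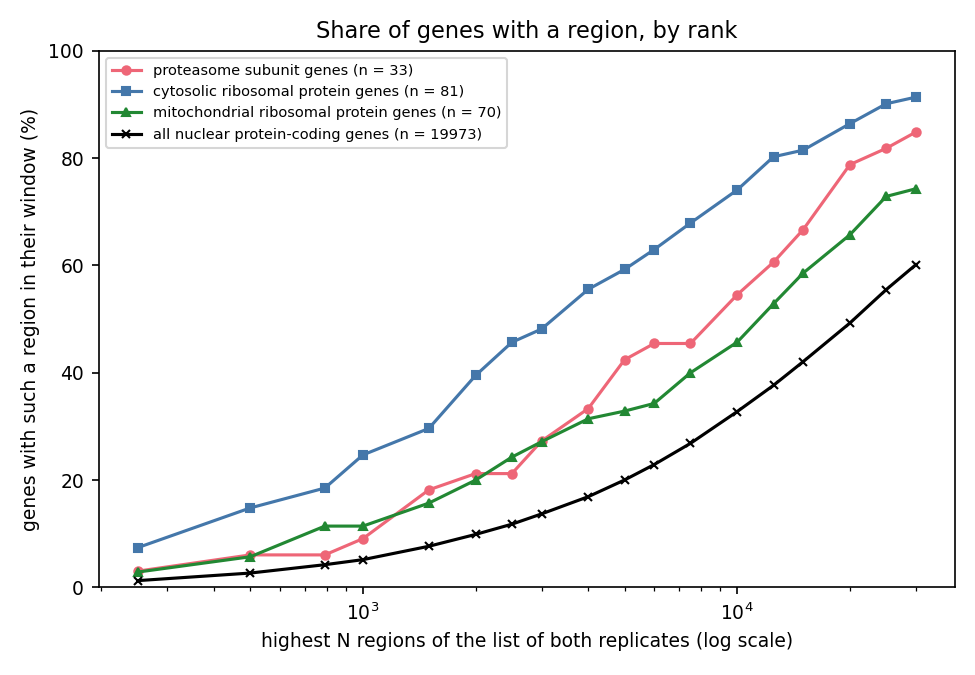
Share of genes (y axis, %) with a region among the highest N of the list of both replicates in their window (x axis, log scale), for the 33 proteasome subunit genes, 81 cytosolic and 70 mitochondrial ribosomal protein genes and all 19973 nuclear protein-coding genes. At N = 5000 the shares are 42.4%, 59.3%, 32.9% and 20%.

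The proteasome genes lay below the cytosolic ribosomal protein genes throughout this list. Of 81 ribosomal genes, 48 (59.3%, exact binomial 95% interval 47.8 to 70.1%) had a region among the highest 5000 and 15 had an IDR peak. For the 70 genes of mitochondrial ribosomal proteins the numbers were 23 (32.9%, interval 22.1 to 45.1%) and 8. At rank 5000 the interval of the proteasome genes overlaps that of each ribosomal family. Differences between the families were not tested.

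All 4 kinds of subunit had genes with high-ranked regions. A region among the highest 5000 was found at 3 of 7 pas genes, 3 of 7 pbs genes, 2 of 6 rpt genes and 6 of 13 rpn genes. Of all genes, 20% had such a region, and the exact binomial 95% interval of each kind covers that share. The 7 genes with a region among the highest 2500 (all genes 11.8%) were 4 rpn genes, 2 pbs genes and 1 rpt gene. Median best ranks in the list of both replicates were 15205 for pas, 5395 for pbs, 9373 for rpt and 7958 for rpn genes. With so few genes of each kind, these medians were not set against each other by a test.

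**Figure D2:**
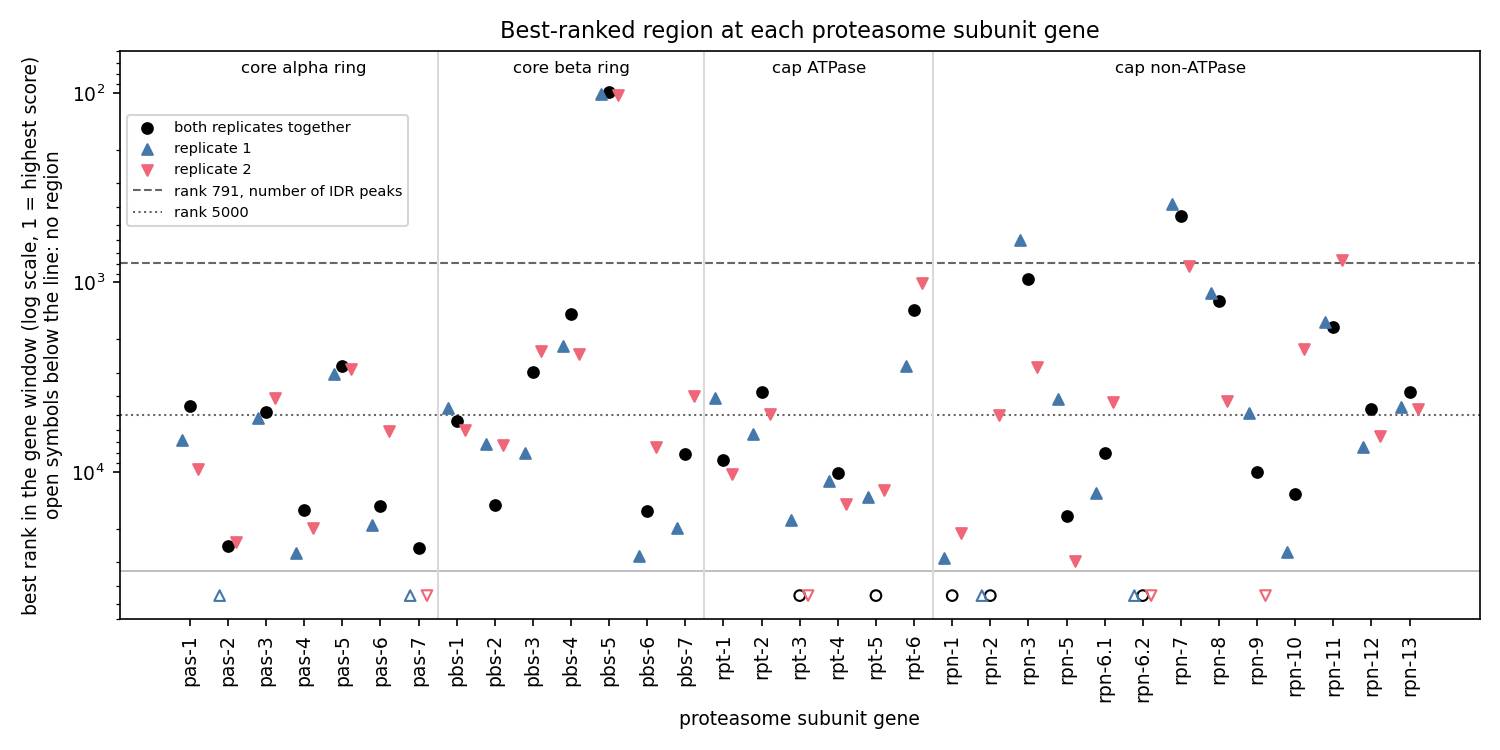
Best rank of a region in the window of each proteasome gene (y axis, log scale, rank 1 at the top) in the list of both replicates (circles), replicate 1 (upward triangles) and replicate 2 (downward triangles), by subunit kind. Open symbols mark lists with no region. pbs-5 stands highest at ranks 99 to 103, and rpn-6.2 has no region in any list.

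Among the other beta subunits of the core, pbs-4 and pbs-3 reached the highest 5000. pbs-4, on chromosome I, ranked 1461 (score 100.2), with ranks of 2179 in replicate 1 (score 53.6, at -1978 bp) and 2397 in replicate 2 (score 44.2, at -1984 bp). That summit lay at -1971 bp, at the edge of the window, and nearer to the start of its divergent neighbour magu-3. pbs-3, on chromosome II, ranked 2989 (score 80.9) at -76 bp, inside the tandem gene ulp-2, which ends 22 bp before pbs-3 begins. It was higher in replicate 2 (rank 2316, score 44.7, at -51 bp) than in replicate 1 (rank 7969, score 37.2, at -74 bp). pbs-1, whose counterpart in yeast has the caspase-like site, was just outside the highest 5000, at rank 5395 and -122 bp. pbs-7 (8057), pbs-2 (14884), whose counterpart in yeast has the trypsin-like site, and pbs-6 (16104) ranked lower.

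Of the alpha subunits, pas-5, pas-1 and pas-3 reached the highest 5000. pas-5 ranked 2774 (score 82.8), at -1129 bp, with ranks of 3037 in replicate 1 (score 48.8, at -1126 bp) and 2864 in replicate 2 (score 42.0, at -864 bp). The replicate 2 value is of another region, and the one at -1129 bp ranked 4007 there. The annotated snoRNA gene F25H2.15 lies within 100 bp of each of these summits, and snoRNAs guide chemical modification of other RNAs. pas-1 ranked 4476 (score 72.0) at -807 bp, beside the start of rpoa-12, a subunit gene of RNA polymerase I. Its ranks of 6805 in replicate 1 (score 39.0, at -735 bp) and 9690 in replicate 2 (score 29.1, at -841 bp) were both outside the highest 5000. pas-3 ranked 4813, at -190 bp and inside use-1. The remaining pas genes were low, with ranks of 15205 (pas-6), 15926 (pas-4), 24649 (pas-2) and 25115 (pas-7). pas-7 had no region in either replicate.

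The ATPase genes rpt-6 and rpt-2 had regions among the highest 5000. rpt-6, on chromosome III, ranked 1403 (score 102) at -1589 bp. This summit lies 183 bp inside his-72, the divergent gene of a histone H3.3, and it ranked 1004 in replicate 2 (score 57.0, at -1543 bp). In replicate 1 the best region of rpt-6 was another one, at -357 bp (rank 2775, score 50.1), while the region in his-72 ranked 3611 there. rpt-2 ranked 3803 (score 75.6) at -174 bp, in the 300 bp it shares with the divergent gene aps-1, a small subunit of the AP-1 clathrin adaptor. It ranked 6282 in replicate 1 (score 40.0, at -211 bp) and 4963 in replicate 2 (score 35.9, at -81 bp). In the stretch printed for rpt-2, the CHE-1 core occurs 2 times (GGCTTC, which is GAAGCC on the other strand, and GAAACC) and the SKN-1 core 3 times. Lower ranks were found for rpt-1 (8630, at -133 bp) and rpt-4 (10115, at 820 bp inside the gene).

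In the cap, rpn-3 had the highest region for which the subunit gene's own start was the nearest. rpn-3 (WBGene00004460, chromosome III), a lid subunit, ranked 963 (score 118) at -215 bp, in the 443 bp to the divergent chaperone gene hsp-110. It ranked 598 in replicate 1 (score 84.2, at -252 bp) and 2785 in replicate 2 (score 42.3, at -180 bp), so it was among the highest 791 in replicate 1 and not in replicate 2. In replicate 1 the start of hsp-110 was the nearer one. The stretch printed for rpn-3 holds the SKN-1 core 2 times, overlapping in ATCATCAT, and no CHE-1 core.

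rpn-8 and rpn-11 code for a pair of lid subunits that bind each other, of which RPN-11 removes ubiquitin from the substrate. rpn-8 ranked 1261 (score 105), with 1133 in replicate 1 (score 64.5, at 594 bp) and 4208 in replicate 2 (score 37.7, at 596 bp). Its summit was at 596 bp inside the gene, within 100 bp of the annotated snoRNA gene R12E2.17, and it was the one region among the highest 5000 that lay inside a subunit gene. rpn-11 ranked 1713 (score 95.4) at -1473 bp, upstream of the tandem gene K07D4.2, and 1628 in replicate 1 (score 57.9, at -1469 bp). The stretch printed for rpn-11 is the one around this summit, where every base within 50 bases of the summit is masked as repeats in the RefSeq file. In replicate 2 a summit 175 bp from the one at -1473 bp ranked 4249. The list of both replicates has another region at -1688 bp (rank 9528), so the replicate 2 summit may belong to either. Replicate 2 had its best region at 34 bp from the rpn-11 start (rank 765, score 62.8). The list of both replicates has a region at -1 bp from that start, with rank 3279 and a score of 78.9.

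rpn-13, which codes for a ubiquitin receptor, ranked 3771 (score 75.7) at -385 bp, with ranks of 4525 in replicate 1 (score 43.8, at -412 bp) and 4649 in replicate 2 (score 36.6, at -352 bp). Its own start was the nearest. rpn-12, a lid subunit gene, ranked 4680 at -810 bp, inside the coding sequence of the divergent gene rad-23, whose product carries ubiquitin-marked proteins to the proteasome. Ranks of rpn-6.1 (7958), rpn-9 (10046), rpn-10 (13029), another ubiquitin receptor, and rpn-5 (17094) were lower. Of these, rpn-10 ranked 2254 in replicate 2 and 26593 in replicate 1, and rpn-5 ranked 4120 in replicate 1 and 29705 in replicate 2. Each of these genes was thus high in a single replicate.

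No region of the list of both replicates lay at rpn-1, rpn-2, rpt-3, rpt-5 or rpn-6.2. rpn-1 and rpn-2, the large scaffold subunits of the cap base, had ranks of 28589 and 21144 (rpn-1, replicates 1 and 2) and 5039 (rpn-2, replicate 2 only). rpt-5 had ranks of 13517 and 12458 in replicates 1 and 2, and rpt-3 a rank of 18037 in replicate 1 only. rpn-6.2, a paralog of rpn-6.1, was the 1 gene with no region in any list. A list ends at a fixed number of regions, so absence from it says only that no region ranked high enough.

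**Figure D3:**
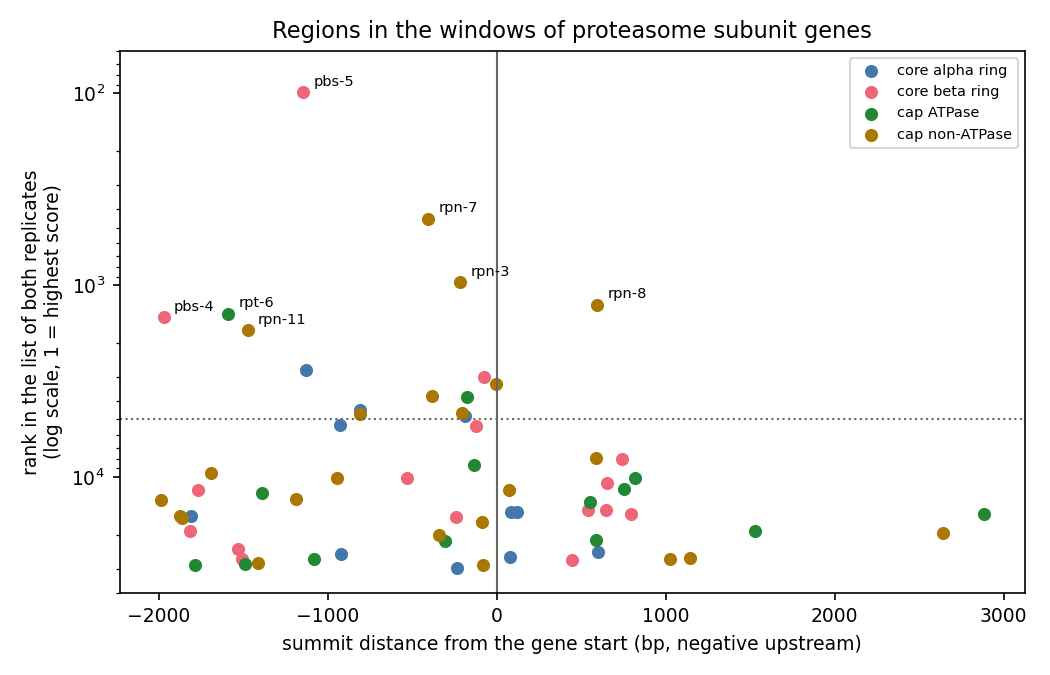
Distance of each of the 64 summits from the start of its proteasome gene (x axis, bp, negative upstream) against the region's rank in the list of both replicates (y axis, log scale, rank 1 at the top), coloured by subunit kind. Above rank 5000, shown by the dotted line, 15 of 16 regions lie upstream, and rpn-8 is the exception. The same share over the regions of all genes was not computed.

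Most best regions lay upstream of the genes. Of the 28 best regions in the list of both replicates, 21 were upstream of the start and 7 inside the gene. Among genes with a region, 75.0% of proteasome genes had it upstream, against 55.0% of all genes. In replicate 1 it was 22 of 29 (75.9%, against 53.8%) and in replicate 2 it was 19 of 29 (65.5%, against 52.6%). Every window holds 2 kb upstream, a larger part of the shorter windows of proteasome genes (median 3490 bp, all genes 4027 bp). The shares were not adjusted for that. Counted over every gene, with or without a region, 21 of 33 stood against 33.1% of all genes (33.7% in replicate 1 and 33.5% in replicate 2), a wider gap because more proteasome genes had a region. The median distance was -227 bp, and 11 of the 28 best regions lay within 500 bp of the start (39.3%), against 33.5% of all genes with a region. It was 12 of 29 in each replicate (41.4%), against 32.5% in replicate 1 and 31.6% in replicate 2. Over every gene, the all-gene shares were 20.2%, 20.4% in replicate 1 and 20.1% in replicate 2.

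Most of these summits were nearer to another gene's start. The subunit gene's own start was the nearest protein-coding start for 11 of 28 best regions, against 68.6% for all genes with a region. Among the 14 genes with a region in the highest 5000 it was so for 5 (all genes 66.3%), namely rpn-3, rpn-8, pas-5, pbs-3 and rpn-13. In 9 of the 28 cases the summit lay inside another protein-coding gene and not in the subunit gene, and in 12 it lay in no protein-coding gene. The same shares over all genes were not computed, so whether this placement is particular to proteasome genes is not known. By the nearest start, both IDR peaks belonged to the neighbours K05C4.2 and F49C12.9. For the summits nearer to another start, the proteasome gene and its neighbour cannot be told apart as the gene a region belongs to. A nearest own start does not settle this either. For rpn-3 the start of hsp-110 was nearer in replicate 1, and the pbs-3 summit lies inside ulp-2.

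The neighbourhoods were compact. The nearest upstream protein-coding gene was under 500 bp away for 20 of 33 genes, against 27.3% of all genes. It was divergent for 23 of 33 (all genes 45.4%) and tandem for 10. A region among the highest 5000 was found at 8 of the 23 with a divergent neighbour (all such genes 22.5%) and at 6 of the 10 with a tandem one (all such genes 17.9%). By chromosome, 5 of 10 genes on I, 3 of 7 on II, 3 of 8 on III, 1 of 3 on IV and 2 of 5 on V had such a region, where all genes had 27.6%, 19.7%, 29.8%, 16.8% and 12.8%. None of the 33 genes is on X.

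The replicates shared part of the high-ranked genes. A region among the highest 5000 was found in both replicate lists at 9 genes (all genes 12.2%), in a single one at 10 and in neither at 14. Of all 19973 genes, 3172 had one in a single list and 14355 in neither. Among the highest 2500 of both replicate lists it was 4 genes (all genes 6.77%). The 9 were pbs-4, pbs-5, pas-5, rpt-6, rpn-3, rpn-7, rpn-8, rpn-11 and rpn-13. In windows of equal length it was 3 genes (9.09%), against 5.02% of all genes, and with nearest starts it was 3 (9.09%), against 7.87%. For 27 genes with a region in both lists, Spearman's correlation of the best ranks was 0.55, and it was 0.54 over the 10251 such genes of the genome. The best region of a gene need not be the same one in both lists. For rpn-1 it lay at -222 bp in replicate 1 and at 2788 bp in replicate 2. These counts and the correlation are thus of genes, not of single regions. The points share the 2 libraries, and neighbouring genes can share a region, so this is a description only.

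**Figure D4:**
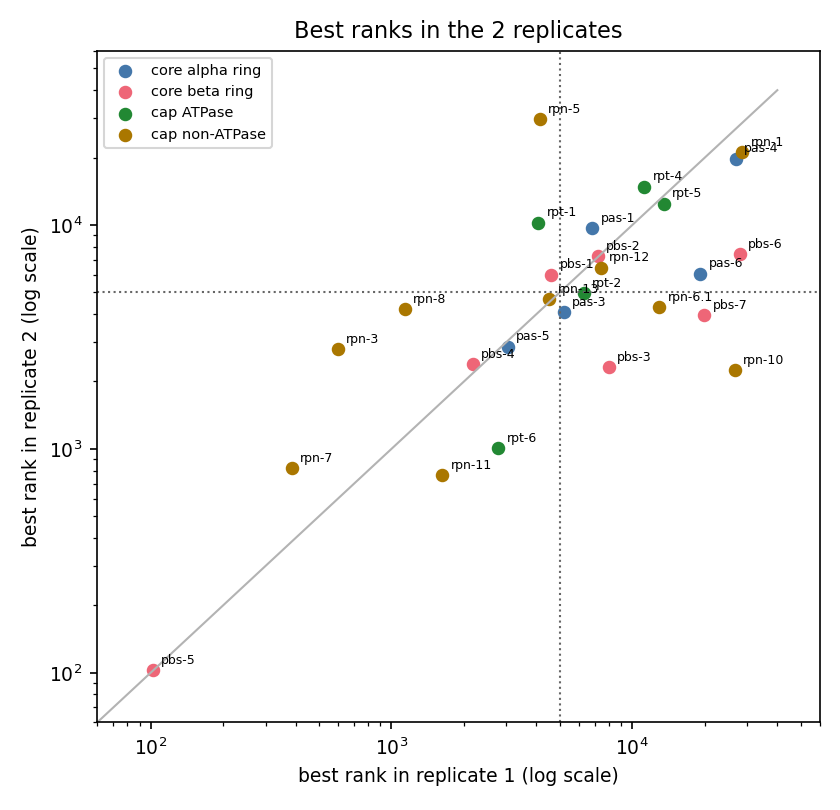
Best rank in replicate 1 (x axis, log scale) against best rank in replicate 2 (y axis, log scale) for the 27 proteasome genes with a region in both lists, coloured by subunit kind, with the line of equal rank. Dotted lines mark rank 5000, and 9 genes rank better than that in both lists. rpn-5 and rpn-10 are far from the line of equal rank, on opposite sides. The 2 ranks of a gene can be of different regions, as for rpn-5.

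The best regions of the list of both replicates were followed into each replicate by a summit within 250 bp. By that match, all 14 regions among the highest 5000 were found in both replicates, at most 204 bp from the summit of the joint list. Of the best regions of all genes among the highest 5000, 95.5% were found in both. The match can take a neighbouring region for the same one. For pas-3 the replicate 2 summit was 204 bp away, at 14 bp from the gene start. The joint list has another pas-3 region nearer to it, at 123 bp (rank 15187). Of all 28 best regions, 21 were found in both (75.0%), against 60.8% for all genes with a region. The joint list was derived from the same replicates. The regions of rpt-1, rpn-9 and rpn-5 were missing from replicate 2, those of pbs-2, pas-6 and pas-2 from replicate 1, and that of pas-7 from both. The best of these 7 regions ranked 8630 in the list of both replicates.

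Other genes of the ubiquitin and proteasome pathway also had high-ranked regions. Of 45 listed symbols, 43 were found, since 2 have no gene of that symbol in the annotation. An IDR peak lay at 4 of 43 (9.30%, exact binomial 95% interval 2.59 to 22.1%), against 4.24% of all genes, and a region among the highest 5000 at 16 (37.2%), against 20%. Whether these shares differ from those of the subunit genes was not tested. The 4 with IDR peaks were also the 4 with the best ranks. They were ecps-1 (rank 53, score 593, -756 bp), whose human counterpart binds the proteasome, cdc-48.1 (rank 383, score 189, -167 bp), the ATPase that extracts ubiquitin-marked proteins, akir-1 (rank 613, score 142, -404 bp) and ufd-3 (rank 748, score 130, -155 bp), a cofactor of CDC-48. The summit for ecps-1 was nearest to the start of atx-2, and that for akir-1 to the start of E01A2.1. skn-1 itself ranked 5056, at 2929 bp inside the gene, with ranks of 4274 and 1070 in replicates 1 and 2. In the smaller families set beside them, 4 of 8 CCT chaperonin genes and 0 of 6 genes of the COP9 signalosome, which resembles the lid, had a region among the highest 5000.

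The CHE-1 core was found at a minority of these genes. In promoters, taken as 250 bases before to 50 after the gene start, GAAACC or GAAGCC on either strand was found at 5 of 33 genes (15.2%), against 19.5% of all promoters. The same letters reversed, CCAAAG or CCGAAG, a control for composition, were found at 5 of 33 (15.2%), against 14.2%. The 5 genes with the CHE-1 core were pas-3, pbs-1, rpn-3, rpn-7 and rpt-2. Within 50 bases of the summit, 6 of 28 best regions held it, against 8.56% of all nuclear regions of the list, but 1 of the 14 among the highest 5000 did, against 8.24%. The composition control was found there at 1 of 28, against 6.63%, and at 0 of the 14, against 6.65%. These differences were not tested.

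The short SKN-1 core was present in most promoters of both kinds, at 28 of 33 proteasome genes (84.8%) and 72.1% of all genes. Around summits ATCAT or GTCAT was found at 5 of 28 best regions, against 27.1% of all nuclear regions. CGCACA was found in 6 of 33 promoters, against 7.19% of all, and at 0 of 28 summits, against 3.60%. CACGTG was found in 1 promoter, that of rpn-6.2, against 5.82%, and at 0 of 28 summits, against 2.16%. Matches of any of these forms can overlap each other. Median G and C content around the summits was 42.6% for the best regions of proteasome genes and 40.6% for all nuclear regions, and among the highest 5000 it was 45.0% and 45.5%.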

How the data were processed

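The values used are the authors' deposited score of each region (signal column), on a scale that is not stated. The deposited q column, also a score of unstated scale, served only as an alternative ranking. The deposited summit offset (other, in bp) was added to the region start, and coordinates are 1-based. Per the text notes deposited with the samples, 1 list was derived from each replicate's alignment, 1 from both, and the IDR set from these 3. The sources used here name no caller, aligner or IDR threshold, and give no depth. Lists of build ce11 were used, and 0 regions exceeded the chromosomes of WBcel235. All 36 annotated start codons of the gene set read ATG in the RefSeq sequence.

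Each gene received the best-ranked region with its summit in the window. Counts and medians stand beside those of all nuclear protein-coding genes. No test was made, since there is 1 group. The assignment was tested on simulated data. Named genes follow a rule: genes with an IDR peak, the next best ranks, genes without a region, nearer neighbours, and pathway genes with an IDR peak or the 4 best ranks. The gene set and lists were chosen with earlier results of these data known, although the rule that picks the genes uses their symbols alone. Python 3.11.15, numpy 2.4.6, pandas 2.3.3, scipy 1.17.1 and matplotlib 3.10.9 were used.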

Additional observations from a re-analysis of the deposited data

How the results depend on the processing

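The 5 summary values were recomputed under other choices. The 2 genes with an IDR peak became 1 (3.03%) with 0.5 times as many peaks, against 2.05% of all genes. It was also 1 in a window from 1 kb upstream to the gene end (all genes 3.41%) and in windows of equal length (all genes 2.27%). When a region went only to the gene with the nearest start it was 0 (all genes 2.64%). The 14 genes with a region among the highest 5000 became 7 with nearest starts (21.2%, all genes 14.2%) and 9 in windows of equal length (27.3%, all genes 9.73%). Among the highest 2500 there were 7 (21.2%, all genes 11.8%). The 9 with a region among the highest 5000 in both replicates became 3 with nearest starts (9.09%, all genes 7.87%) and 4 from 1 kb upstream (12.1%, all genes 9.82%). In windows of equal length they became 3 (9.09%, all genes 5.02%). They became 4 among the highest 2500 (12.1%, all genes 6.77%) and 16 among the highest 10000 (48.5%, all genes 22.5%). The 21 upstream best regions became 10 with nearest starts (30.3%, all genes 23.6%). The median best rank of 8057 became 15205 with nearest starts, 10096 from 1 kb upstream, 17094 in windows of equal length and 10046 without regions at tRNA and snoRNA genes. Over all genes the median was 25829 from 1 kb upstream and 20933 without those regions, and with nearest starts or equal windows the median gene had no region. Leaving out a replicate gave 2 to 3 genes with an IDR-rank region, 13 to 15 among the highest 5000, 19 to 22 upstream and medians of 6001 to 7174. The other alternatives kept each count within 1.5 times. The IDR counts of 0 and 1 are too small to be set apart from the all-gene shares. No paired analysis was possible because there is 1 group. Depth is unknown, so no limit from it can be given.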

Other observations

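In 3 of the 6 printed stretches (rpn-7, rpn-3 and rpt-2) the SKN-1 core appeared in a longer form, GTCATCAT or ATCATCAT, and this form was searched after it had been seen there. The other 3 hold no SKN-1 core, rpt-2 also has a separate short one, and the stretch around the pas-1 summit, which is not printed, has the short form alone. It was found on either strand in 8 of 33 proteasome promoters (24.2%), those of pas-2, pas-5, pas-7, pbs-4, pbs-7, rpn-3, rpt-2 and rpt-6, against 4.79% of all promoters. Within 50 bases of the best summits it was found at 1 of 28, against 1.20% of all nuclear regions. The genes with the form in their promoter had best ranks from 963 (rpn-3) to 25115 (pas-7). The share was not tested, since the form was chosen on these sequences.

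Some best regions lie in repeats. Over 50% of the bases within 50 bases of the summit are masked as repeats for 5 of 28 best regions, against 25.9% of all nuclear regions, and for 3 of the 14 among the highest 5000, against 21.0%. The 3 are pbs-4 (91.1% masked), rpn-11 (100%) and pas-3 (78.2%). How the authors treated reads that map to several places is not stated, and its part in these ranks was not tested.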
